A study of Mus musculus with 6 samples.

Results

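The epidermal growth factor (EGF) family genes measured here were 7 ligands (Hbegf, Areg, Ereg, Tgfa, Btc, Egf and Nrg1) and 3 receptors (Egfr, Erbb2 and Erbb3), chosen by gene symbol. All 10 had a row of their own among the 31054 features of each count matrix. They were described in single-cell RNA sequencing libraries of whole lung from 6 male C57BL/6 mice of 21 months, 1 library per mouse.

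The libraries labelled p16-DTR (n = 3) were of the genotype p16-CreERT2/R26-LSL-DTR. In these animals the p16 promoter drives a tamoxifen-activated Cre recombinase, which removes a stop cassette in front of a diphtheria toxin receptor (DTR). The control libraries (n = 3) came from p16-CreERT2 mice, which carry the same Cre and no receptor. All 6 mice had tamoxifen for 5 days, a pause of 2 weeks, diphtheria toxin for 5 days and 2 weeks of recovery, so the control mice also had both agents. The comparison asks what differed in the lung after toxin was given to mice whose p16-high cells carried the receptor. Lungs were digested with liberase, and 20000 CD45- and 9000 CD45+ sorted cells were mixed for each library, so the balance of immune and other cells was set by the sort.

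EGF family ligands are made as membrane proteins whose outer part is cut free by proteases such as ADAM17 (Adam17), or which signal to a touching cell while still anchored. They bind receptor tyrosine kinases that work in pairs: Egfr binds most of these ligands, Erbb3 binds neuregulins but has little kinase activity, and Erbb2 binds no known ligand and serves as the partner. In the lung the pathway is known for roles in epithelial repair and in signalling from epithelium to fibroblasts, and Areg from innate and T lymphocytes is known for its part in tissue repair. Hbegf has a further role here: the toxin receptor used in DTR mice is the primate version of the HB-EGF precursor, whereas mouse HB-EGF does not act as a toxin receptor. The matrices held no separate entry for this toxin receptor, and whether its reads were counted as mouse Hbegf was not tested.

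Across the 6 libraries, 94392 barcodes held 254200305 to 344421685 UMIs (unique molecular identifiers, 1 per captured transcript) per library, and 91156 barcodes were retained. A per-cell gate on marker genes placed 79578 of them (87.3%) in a cell class, and 2905 (3.19%) were left out because they also carried markers of another lineage. In 31 classes with at least 10 cells in every library levels are given, and the 20 with at least 50 cells in every library were tested. In the 6 classes on which the Hbegf results rest, at least 3 markers of the class were among its 10 leading genes and the median cell had 0 UMIs of the general markers of the other lineages. The gate used these same markers, so neither value is a separate check of purity. Of alveolar type 2 cells, 41.8% had a UMI of the endothelial, 39.7% of the leukocyte and 31.7% of the mesenchymal general markers. In alveolar type 1 cells these shares were 21.5%, 17.9% and 13.5%. The endothelial classes are less distinct from each other: the median venous cell had 91.7 UMIs of its own markers and 47.9 of general capillary markers per 10000 UMIs. Between any pair of libraries, 55 to 90 cell barcodes were shared. Cdkn2a, the gene for p16, stood at 7.66 ± 0.791 UMIs per 1e6 (SD, n = 3) in the p16-DTR-labelled libraries, above the 2.20 ± 0.913 of control and with no overlap, so every direction below is between the libraries as labelled. These sums do not show a loss of Cdkn2a RNA under the p16-DTR label. Whether the labels match the animals was not tested, and an exchange of labels would turn every direction.

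Areg, Ereg and Btc are neighbours on mouse chromosome 5 (GRCm38): Ereg spans 91074622 to 91093646 and Areg 91139599 to 91148432 on the plus strand, and Btc 91357261 to 91402994 on the minus strand. The promoters of Areg and Btc are shown because alveolar type 2 cells ranked 3 of 31 classes for Areg and 2 for Btc by mean level. These neighbours differed in the class where each was highest, type 2 innate lymphoid cells for Areg and mesothelial cells for Btc. Each line is the 250 bases before the gene's start, from RefSeq (GRCm38.p6), which held promoters for 6 of the 10 genes. Capitals mark the cyclic AMP response element TGACGTCA, which reads the same on both strands.
Areg promoter, chr5:91139349-91139598, plus strand: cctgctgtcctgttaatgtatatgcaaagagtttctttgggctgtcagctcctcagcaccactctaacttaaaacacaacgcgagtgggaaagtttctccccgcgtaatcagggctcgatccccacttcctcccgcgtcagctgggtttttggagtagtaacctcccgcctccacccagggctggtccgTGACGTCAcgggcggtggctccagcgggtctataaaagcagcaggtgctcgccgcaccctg
Btc promoter, chr5:91402995-91403244, minus strand: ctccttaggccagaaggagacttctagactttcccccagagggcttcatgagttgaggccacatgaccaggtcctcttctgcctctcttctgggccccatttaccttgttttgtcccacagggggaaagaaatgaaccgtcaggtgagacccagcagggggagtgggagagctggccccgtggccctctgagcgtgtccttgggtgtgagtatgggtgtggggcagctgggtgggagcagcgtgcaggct
The Areg window held 1 such element, starting at position -61 from the gene's start, and no AP-1 element (TGANTCA, which covers both strands). The Btc window held neither. Of 27025 RefSeq promoter windows of the same length, 1.62% held TGACGTCA and 6.87% held TGANTCA. These are matches of letters and not measured binding sites.

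Each ligand had its own set of cell classes. Levels are UMIs per 1e6 UMIs of the class in a library, given as the mean ± SD over all 6 libraries unless a group is named. Because the libraries count the 3′ ends of transcripts and capture differs between genes, a level is compared only between classes of 1 gene.

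**Figure D1:**
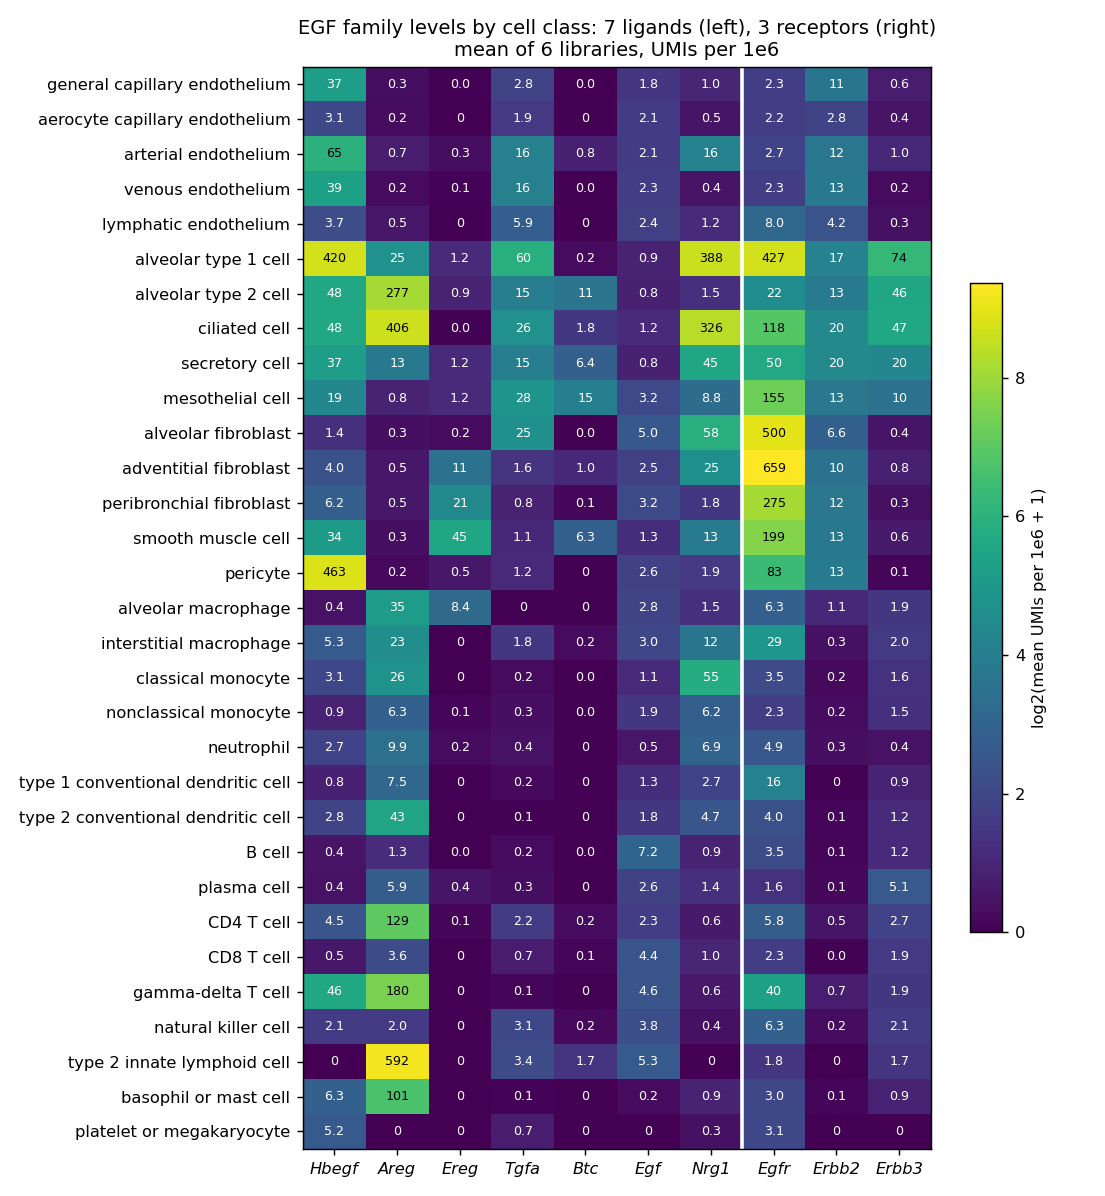
Heat map of the mean level of the 10 genes (columns, ligands left of the white line) in 31 cell classes (rows), with the mean over 6 libraries in UMIs per 1e6 printed in each field and colour on a log2(mean + 1) scale. Hbegf is brightest in pericytes (463) and alveolar type 1 cells (420), Areg in type 2 innate lymphoid cells (592), and Egfr in adventitial fibroblasts (659).

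Hbegf, which encodes heparin-binding EGF-like growth factor, had its highest levels in pericytes (463 ± 68.5) and alveolar type 1 cells (420 ± 138). The order of this pair turned between the groups: alveolar type 1 cells had 544 ± 25.8 and pericytes 476 ± 94.6 under the p16-DTR label (SD, n = 3), with overlapping ranges, and 296 ± 31.4 and 449 ± 46.7 in control, without overlap. Over all 6 libraries the ranges of these classes overlapped, and both lay above arterial endothelium, the next by this mean at 64.6 ± 26.9. Alveolar type 2 cells (48.4 ± 18.8), ciliated cells (48.1 ± 24.3), gamma-delta T cells (46.3 ± 16.5), venous endothelium (39.2 ± 19.97) and general capillary endothelium (37.4 ± 11.9) had overlapping ranges. Their order also turned between the groups. Under the p16-DTR label alveolar type 2 cells had 60.6, above arterial (47.9), general capillary (27.6) and venous endothelium (21.3). In control arterial (81.3), venous (57.1) and general capillary endothelium (47.3) had more than alveolar type 2 cells (36.1), as means of 3 libraries. The range of alveolar type 2 cells overlapped that of arterial endothelium under the p16-DTR label and that of general capillary endothelium in control. The endothelium was split: the aerocyte, a large capillary cell specialised for gas exchange, had 3.06 ± 0.488 and lymphatic endothelium 3.66 ± 1.07. After thinning every cell to 5000 UMIs, 82.0% ± 5.61 of pericytes had an Hbegf UMI, compared with 13.4% ± 3.42 of general capillary cells and 0.195% ± 0.259 of B cells. Median UMIs per cell were 16174, 15558 and 13116 in these classes, and unthinned shares were 88.3%, 27.8% and 0.553%. General capillary cells were 24.2% of retained cells and held 38.2% ± 2.83 of all Hbegf UMIs. Pericytes were 0.716% of cells and held 13.9% ± 2.34.

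Areg encodes amphiregulin, a ligand of Egfr made by both epithelium and lymphocytes. Its level was highest in type 2 innate lymphoid cells at 592 ± 383, but with 107 cells in all and 11 in the smallest library the range was wide (277 to 1304). Ciliated cells had 406 ± 147, alveolar type 2 cells 277 ± 112 and gamma-delta T cells 180 ± 135, and the ranges of neighbours in this order overlapped. CD4 T cells had 129 ± 37.9 and CD8 T cells 3.57 ± 2.21, with no overlap in range. A thinned share of 16.3% ± 2.87 of CD4 T cells and 1.26% ± 0.449 of CD8 T cells had an Areg UMI, beside 0.231% ± 0.159 of B cells. Of the CD8 T cells 36.1% lay within the wider margin of the gate, and of the CD4 T cells 43.9%, so these classes are ranges of a score. Ciliated cells were 0.879% of cells and held 28.8% ± 6.47 of all Areg UMIs, and alveolar type 2 cells were 1.02% and held 24.5% ± 7.41.

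Ereg, the gene for epiregulin, was found in muscle and fibroblast classes: smooth muscle cells had 44.7 ± 49.7, peribronchial fibroblasts 20.5 ± 15.6 and adventitial fibroblasts 10.6 ± 3.83, with overlapping ranges. Ereg overlaps the gene Gm19610 on the other strand. The strand setting of the counting is not given, so whether reads of the pair were told apart is not known here. Tgfa, which encodes transforming growth factor alpha, was highest in alveolar type 1 cells at 59.7 ± 8.19, and these did not overlap mesothelial cells at 27.5 ± 4.21. Ciliated cells (25.7 ± 2.84) and alveolar fibroblasts (24.9 ± 5.91) came next, and the abundant alveolar fibroblasts held 61.5% ± 8.97 of all Tgfa UMIs. Btc, the gene for betacellulin, was low, with its highest levels in mesothelial cells (15.4 ± 3.28) and alveolar type 2 cells (11.3 ± 1.55), followed by secretory cells (6.41 ± 1.60) among the 31 classes. Egf itself was low in each of the 31 classes, with B cells highest at 7.17 ± 1.21, type 2 innate lymphoid cells next at 5.31 ± 6.26 and alveolar fibroblasts at 4.95 ± 0.386. The ranges of neighbours in this order overlapped, and those of B cells and alveolar fibroblasts did not. Egf overlaps Gm42697, Gm42650 and 6330410L21Rik on the other strand.

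Nrg1 encodes neuregulin 1, a ligand of Erbb3 and Erbb4. Alveolar type 1 cells had 388 ± 42.3 and ciliated cells 326 ± 66.1, with overlapping ranges, and both lay above alveolar fibroblasts at 58.4 ± 25.2 and classical monocytes at 55.0 ± 25.5. Alveolar fibroblasts nevertheless held the largest share of Nrg1 UMIs of the 31 classes (40.4% ± 7.59), since they were 19.8% of cells. Nrg1 overlaps Gm26578 on the other strand.

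**Figure D2:**
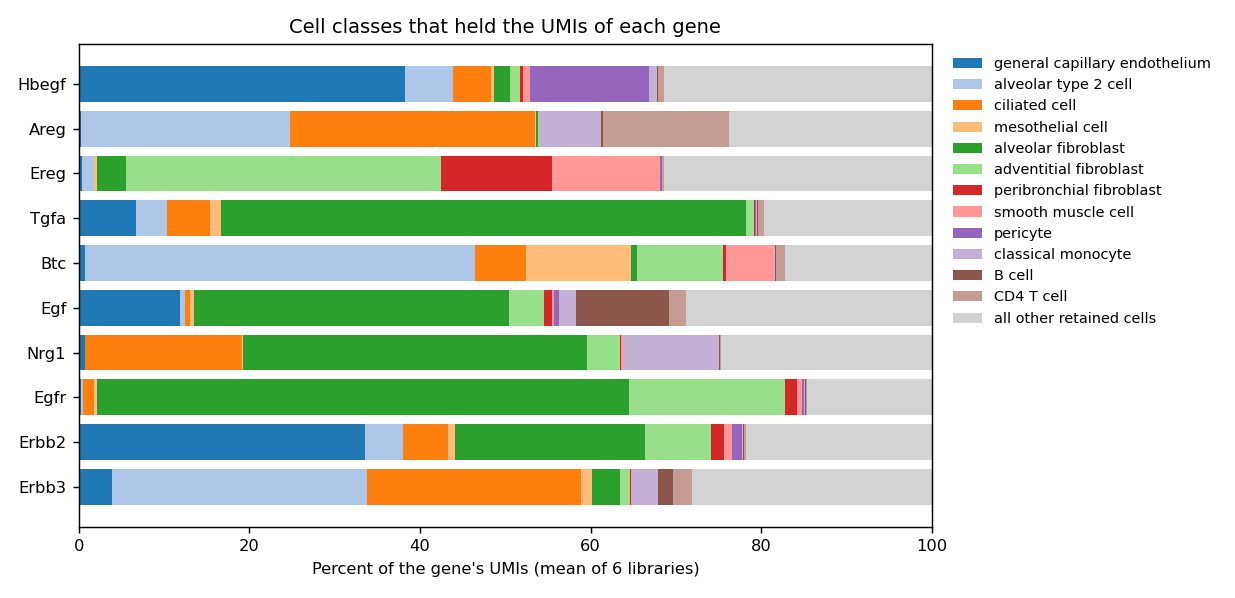
Stacked bars of the percentage of each gene's UMIs (x axis, mean of 6 libraries) held by each cell class that had at least 10% of 1 gene, with all other retained cells in grey. Alveolar fibroblasts hold 62.4% of Egfr UMIs and general capillary endothelium 38.2% of Hbegf UMIs.

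The receptors had other distributions. Egfr was highest in adventitial fibroblasts (659 ± 58.7), alveolar fibroblasts (500 ± 90.3) and alveolar type 1 cells (427 ± 105), with overlapping ranges between neighbours. The last pair changed places between the groups: alveolar fibroblasts had 555 ± 44.8 and alveolar type 1 cells 350 ± 75.3 under the p16-DTR label, against 445 ± 96.8 and 504 ± 62.2 in control (SD, n = 3). Peribronchial fibroblasts had 275 ± 49.2 and smooth muscle cells 199 ± 37.9. Alveolar type 2 cells stood at 22.3 ± 7.58, far below alveolar type 1 cells and without overlap. Alveolar and adventitial fibroblasts together held most Egfr UMIs, at 62.4% ± 4.12 and 18.3% ± 4.11. Egfr overlaps the antisense gene Egfros.

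Erbb2 was the most even of the receptors in non-immune cells: its mean lay between 2.75 and 20.4 in all 15 endothelial, epithelial, mesothelial and mesenchymal classes, and at 1.09 or below in the other 16. Aerocytes had 2.75 ± 0.987 compared with 11.4 ± 1.07 in general capillary cells, with no overlap. Erbb2 overlaps Mien1 on the other strand. Erbb3 was an epithelial gene in these data, with alveolar type 1 cells at 73.9 ± 10.4, ciliated cells at 47.3 ± 3.71, alveolar type 2 cells at 45.5 ± 5.28 and secretory cells at 19.8 ± 11.3. Erbb4, the fourth receptor of the family, was looked at only in the 20 tested classes. Among these it was highest in peribronchial fibroblasts, where the libraries labelled p16-DTR had 24.8 ± 15.3 and the control libraries 38.8 ± 19.0 (SD, n = 3 each). Alveolar type 1 cells thus had high class levels of Hbegf, Tgfa and Nrg1 as well as Egfr and Erbb3. For Hbegf and Egfr these came mostly from the 189 of 563 cells with at least 5000 UMIs. In the shallower cells Egfr was at 0 to 136 per library, against 330 to 616 in the deeper ones. Hbegf was at 161 to 306 against 281 to 594.

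Over the 20 tested classes, the genes most like 9 of the members were found by the Pearson correlation of log2(class mean + 1), a description over classes that share libraries and cell capture; Egf was under the minimum of 10 UMIs per 1e6 in each of these classes and was left out. For Hbegf these were Cadm1 (r = 0.87) and Mtcl1 (0.85), and for Areg Galnt3 and Tjp3 (0.90 each). Tgfa was most like Fam189a2 (0.86) and Atp9a (0.83), and Nrg1 was most like Spop (0.81) and Erc2 (0.80). Egfr was closest to Neo1 (0.96) and Pcolce (0.95), Erbb2 to Fzd3 and Eva1c (0.95 each) and Erbb3 to Rassf7 and Cdcp1 (0.97 each). Ereg was closest to Adamts19 and Cacna1g (0.96 each), and Btc to Gm20629 and Tmem28 (0.95 each).

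Between the groups, Hbegf passed edgeR's test in 3 cell classes, in opposite directions. It fell in venous endothelium by 1.41 on the log2 scale (2.66-fold lower) and in general capillary endothelium by 0.73 (1.66-fold lower), and it rose in alveolar type 1 cells by 0.91 (1.88-fold higher). The other 9 genes passed the test in no class in edgeR, which does not show that Hbegf differed from them. Of the 104 tests over members and classes, 19 had an unadjusted p under 0.05, and of all gene tests 13.5% did. The test was edgeR's quasi-likelihood test on UMIs summed per library and class, with Benjamini-Hochberg adjustment over all genes of a class and a threshold of 0.05. Of the 104 tests, 1 was called higher and 2 lower. Of all gene tests over the 20 classes 0.493% were called, 0.205% higher and 0.287% lower. The median log2 fold change was 0.03 over the 104 tests and 0.000417 over all genes tested. A filter on low counts decided which genes were tested: Hbegf entered in 15 classes, Egfr in 18, Areg, Tgfa, Egf and Nrg1 in 11 each, and Ereg and Btc in 2 each. DESeq2 called 6 of the member tests, 5 for Hbegf and 1 for Egfr, on a background of 2.64%. With no filter on low counts edgeR called 14, on a background of 1.72%.

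**Figure D3:**
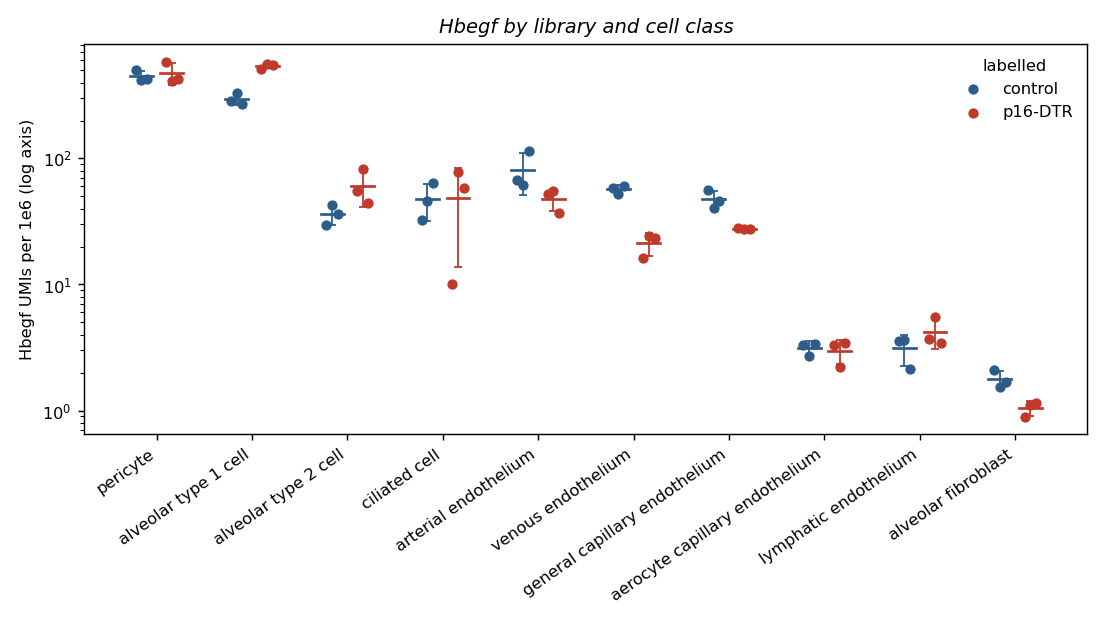
Hbegf level (y axis, UMIs per 1e6, log axis) in 10 cell classes; each point is 1 library, horizontal lines are the group mean and bars 1 SD (n = 3). In venous and general capillary endothelium the libraries labelled p16-DTR lie below all control libraries, and in alveolar type 1 cells they lie above.

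In venous endothelium the libraries labelled p16-DTR had Hbegf levels of 16.3, 24.0 and 23.5 and the control libraries 58.4, 52.6 and 60.3. The groups were far apart relative to the spread within either of them. The log2 fold change was -1.41 (SE 0.14, edgeR adjusted p = 0.00535, 3 of 3 libraries lower), in a class where 2.99% of 12248 genes were called. The call held under each of the 14 alternatives, with adjusted p between 7.24e-13 and 0.0264. Both the share of cells with an Hbegf UMI and the number of UMIs in those cells differed. In cells thinned to 5000 UMIs, 6.21%, 10.0% and 8.82% had one with the p16-DTR label, against 15.99%, 15.3% and 19.6% in control. Unthinned cells with a UMI held 1.70, 2.11 and 1.90 Hbegf UMIs each, compared with 2.96, 2.83 and 2.97. The class had 332 to 526 cells per library; thinning left out 79 cells labelled p16-DTR and 69 control cells, and 26.6% of its cells lay within the wider margin of the gate.

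General capillary endothelium, the most numerous class with 21864 cells, had Hbegf levels of 28.0, 27.4 and 27.4 under the p16-DTR label, against 56.0, 40.1 and 45.8 in control. The 3 libraries labelled p16-DTR were nearly equal, and all lay below the lowest control library. The log2 fold change was -0.73 (SE 0.10, edgeR adjusted p = 0.0391), with 1.15% of 16067 genes called. This call was close to the threshold. It was lost without the p16-DTR library 1 (adjusted p = 0.0858), 2 (0.0544) or 3 (0.1198) and without control library 3 (0.0698), while the fold change stayed between -0.83 and -0.60 in all 14 alternatives. Thinned shares of cells with an Hbegf UMI were 10.4%, 10.2% and 10.55% against 19.0%, 15.3% and 15.9%.

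Arterial endothelium had 52.1, 54.9 and 36.6 under the p16-DTR label, against 67.3, 61.3 and 115 in control. The groups did not overlap, but the difference did not pass the test (log2 fold change -0.76, SE 0.24, edgeR adjusted p = 0.3004), where 0% of 10338 genes passed. With no filter on low counts the adjusted p was 0.000247, and without control library 3 the log2 fold change was -0.42 (adjusted p = 0.511). Of these cells, 47.7% lay within the wider margin of the gate, so arterial cells were the least sharply bounded of the endothelial classes. In aerocytes Hbegf was near the low end in both groups, with a log2 difference of -0.05 (SE 0.26, approximate 95% interval -0.56 to 0.45).

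Immediate-early and heat-shock genes, which respond to tissue dissociation among other stimuli, were called in venous and general capillary endothelium and in other classes. This list of 13 (Fos, Fosb, Jun, Junb, Jund, Egr1, Atf3, Ier2, Dusp1, Zfp36, Nr4a1, Hspa1a and Hspa1b) was written with earlier results of these data known. In venous endothelium 5 of 13 fell (Nr4a1 by 1.44, Egr1 by 1.13, Zfp36 by 0.64, Junb by 0.62 and Ier2 by 0.61 on the log2 scale) and 1 rose (Hspa1b, 1.16). Of all genes in this class 2.99% were called. The summed level of the 13 was 7655 to 9637 UMIs per 1e6 under the p16-DTR label, against 11547 to 13040 in control. In general capillary endothelium 1 of 13, Egr1, fell, where 1.15% of all genes were called, and the sums were 5428 to 6462 and 7105 to 9822. Arterial sums were also apart, at 5774 to 8376 and 9083 to 12798, with 0 of 13 called by edgeR and 10 at an unadjusted p under 0.05, where 10.1% of all genes were. In alveolar type 1 cells 0 of the 11 tested genes passed, none had an unadjusted p under 0.05 (9.15% of all genes did), and the sums overlapped at 1970 to 2705 and 1979 to 2734. Over the 20 tested classes, the sums lay lower without overlap under the p16-DTR label in 8 and higher without overlap in 3. How often sums of other genes lay apart in this way was not counted. Among the 8 were lymphatic endothelium (11194 to 11525 against 13689 to 15949) and ciliated cells (4035 to 5374 against 6079 to 7270). In lymphatic endothelium Egr1 and Zfp36 were called lower, in a class with 0.0531% of genes called. In ciliated cells Ier2 and Zfp36 were called lower, in a class with 0.0571% of genes called. The Hbegf log2 differences in these classes were 0.40 (SE 0.40) and 0.03 (SE 0.48). Peribronchial fibroblasts, also among the 8 (20289 to 20654 against 21410 to 25590), had an Hbegf log2 difference of -0.63 (SE 0.35, edgeR adjusted p = 0.361). CD8 T cells were among the 8 too (2770.5 to 2989 against 3038 to 3265), and Hbegf did not enter the test there. Alveolar type 2 cells were also among the 8 (5324 to 5982 against 6013 to 7524, 0 of 13 called by edgeR and 5 at an unadjusted p under 0.05, beside 14.4% of all genes), while their Hbegf levels lay above control. Classical monocytes were among the 3, at 8250 to 8876 against 6589 to 7756. The part of these genes, or of what moved them, in the Hbegf difference was not tested.

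Alveolar type 1 cells, the flat cells that line the air space, had Hbegf levels of 515, 563 and 554 under the p16-DTR label, against 286, 332 and 272 in control. The lowest library labelled p16-DTR lay well above the highest control library, with an SD of 25.8 and 31.4 within the groups. The log2 fold change was 0.91 (SE 0.13, edgeR adjusted p = 0.00728), and 0.342% of 7905 genes were called in the class. Without p16-DTR library 3 the adjusted p was 0.0538. This class was small and shallow, with 56 to 139 cells per library and a median of 1632 UMIs per cell, so each library's value rests on 237 to 487 Hbegf UMIs. Among the cells with at least 5000 UMIs, which were 20 to 50 per library, levels were 549, 584 and 594 against 298, 347 and 281. They held most of the class's Hbegf UMIs (355 of 371 in p16-DTR library 1), so these values largely repeat the class levels. Cells under 5000 UMIs, with 12 to 22 Hbegf UMIs per library, had 216, 306 and 231 against 163, 171 and 161. Over all cells of the class, the number of Hbegf UMIs per cell with any differed (11.97, 12.5 and 13.2 against 7.18, 8.54 and 7.63), while the thinned share of such cells overlapped between groups (78.3%, 85.7% and 70.0% against 72.0%, 72.0% and 60.0%).

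The alveolar type 1 call depended on leaving out cells with markers of a second lineage. When these were kept, levels were 395, 555 and 551 against 261, 299 and 260, which still did not overlap, and the log2 fold change was 0.92 with an adjusted p of 0.637. Such cells supplied 39.9% of the class's UMIs in p16-DTR library 1 and between 0.876% and 20.3% in the other 5 libraries.

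Alveolar type 2 cells, which make surfactant, had Hbegf levels of 55.2, 82.6 and 44.1 against 29.5, 42.4 and 36.4. All libraries labelled p16-DTR lay above all control libraries, with a log2 fold change of 0.82 (SE 0.20, edgeR adjusted p = 0.144) that did not pass the threshold; DESeq2 gave an adjusted p of 0.00613 and the test with no filter on low counts 0.000495. In pericytes Hbegf levels were 585, 414 and 429 against 502, 417 and 427. These groups overlapped, and the log2 difference was 0.09 (SE 0.14, approximate 95% interval -0.18 to 0.36). Alveolar fibroblasts, with a low level, had a log2 fold change of -0.74 (SE 0.19, edgeR adjusted p = 0.0834), which DESeq2 called (0.0261).

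**Figure D4:**
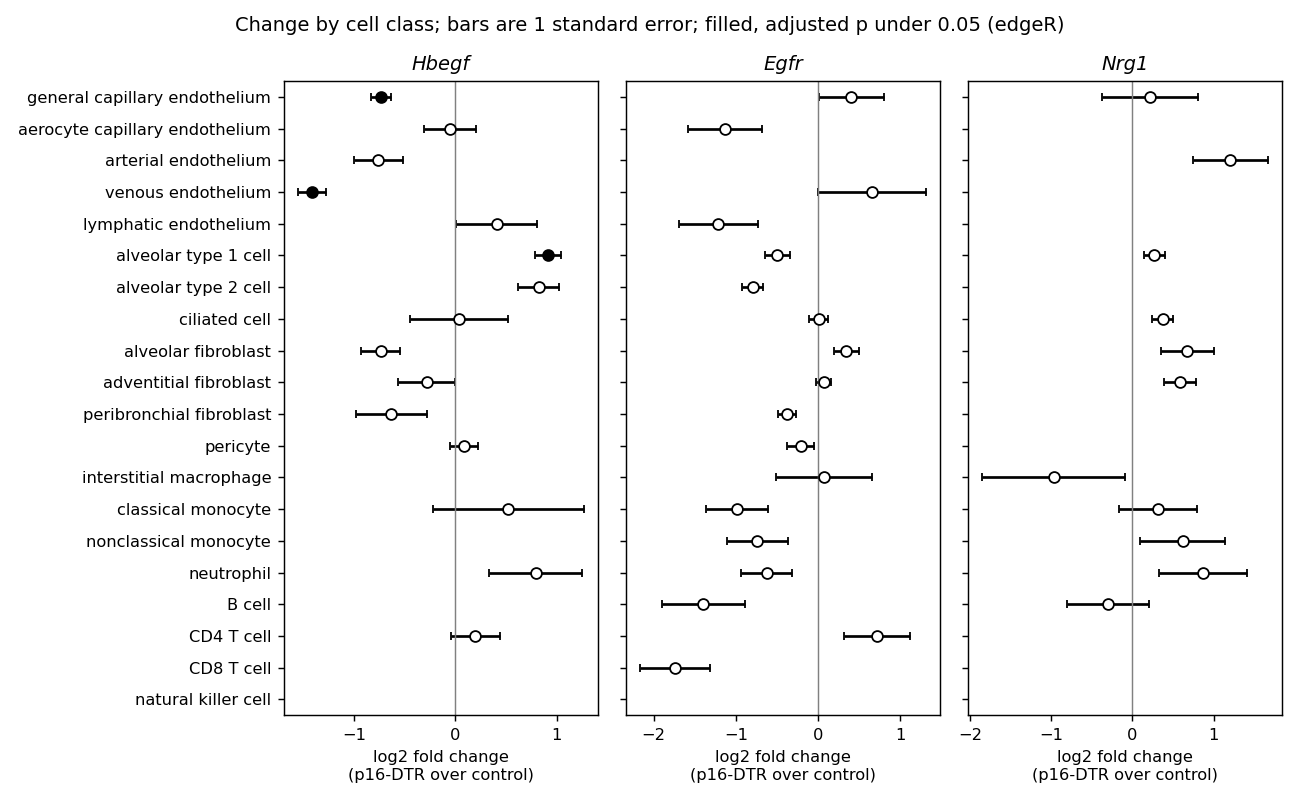
Log2 fold change (x axis, libraries labelled p16-DTR over control) of Hbegf, Egfr and Nrg1 in the tested cell classes (rows); points are edgeR estimates, bars 1 SE, filled points have an adjusted p under 0.05 and classes without a point did not pass the filter on low counts. For Hbegf, venous and general capillary endothelium lie at -1.41 and -0.73 and alveolar type 1 cells at 0.91.

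Differences between classes were tested directly, with the library as a block, for the 21 pairs of the 7 tested classes with the highest Hbegf. The change in alveolar type 1 cells exceeded that in venous endothelium by 2.33 on the log2 scale (SE 0.19, edgeR adjusted p = 1.81e-05 over all genes). It exceeded that in general capillary endothelium by 1.62 (SE 0.18, edgeR adjusted p = 8.81e-07). Alveolar type 2 cells also differed from venous endothelium, by 2.21 (SE 0.23, edgeR adjusted p = 0.0115), and from arterial endothelium, which was lower by 1.54 (SE 0.24, adjusted p = 0.0460). Venous minus general capillary endothelium (-0.69, SE 0.15) had an edgeR adjusted p of 0.124 over all genes and of 0.0015 over the 21 pairs. No difference was shown between alveolar type 1 and type 2 cells (0.12, SE 0.21, edgeR adjusted p = 0.951 over all genes). In all, 4 of the 21 pairs passed with adjustment over all genes and 15 with adjustment over the 21 pairs, which were chosen after the data were seen. Over all genes, 0.0624% of the tests in the 21 pairs were called, and between 0.072% and 0.354% in each of the 4. No such share was computed for the adjustment over the 21 pairs.

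In sums over all retained cells, Hbegf levels were 15.002, 15.7 and 14.8 with the p16-DTR label, against 17.4, 24.1 and 21.4 in control. The groups did not overlap, and the log2 fold change of -0.42 (SE 0.11, edgeR adjusted p = 0.141) did not pass. With equal weight of the tested classes, a value with no test, the log2 difference turned to 0.26. In such sums fewer cells of a type and less RNA per cell cannot be told apart. None of the 10 members passed in edgeR, with 1 at an unadjusted p under 0.05 beside 23.3% of all genes, and 0% of 21630 genes passed; DESeq2 called 1, Hbegf (adjusted p = 0.0224), with 13.5% of the genes it tested called.

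Egfr did not pass the test in any of 18 classes by edgeR, and 9 of them, 8 lower and 1 higher, had an unadjusted p under 0.05, beside 13.8% of all gene tests in those classes. The 1 higher was alveolar fibroblasts (log2 fold change 0.35, SE 0.15). Among the 8 lower were classes with little Egfr: B cells, CD8 T cells, aerocytes, classical monocytes and lymphatic endothelium. Thinned shares of their cells with an Egfr UMI were 0.741%, 0.857%, 0.779%, 1.43% and 2.81%, in this order. In alveolar type 2 cells Egfr levels were 16.2, 16.3 and 14.9 under the p16-DTR label, against 26.3, 33.4 and 26.8 in control, with no overlap. Thinned shares of these cells with an Egfr UMI did overlap, at 8.62%, 8.21% and 3.97% against 8.45%, 10.6% and 10.9%. Unthinned cells with a UMI held 1.98, 1.94 and 1.98 Egfr UMIs each, compared with 2.69, 3.32 and 2.45. The log2 fold change of the level was -0.79 (SE 0.13, edgeR adjusted p = 0.0632), in a class where 0.0171% of genes were called. DESeq2 (adjusted p = 0.00914), scaling by library size alone (0.0259) and testing with no filter on low counts (0.000495) called it. Alveolar type 1 cells had Egfr levels of 307, 306 and 437 against 441, 566 and 507, again without overlap (log2 fold change -0.49, SE 0.15, edgeR adjusted p = 0.242, and 0.0225 with no filter on low counts). Peribronchial fibroblasts, the cells around airways, had 270, 200 and 235 against 317, 320 and 306 (log2 fold change -0.38, SE 0.11, edgeR adjusted p = 0.0950), and this was called without p16-DTR library 1 (0.0395) and with no filter on low counts (0.0351). In alveolar fibroblasts, which held most Egfr UMIs, levels of 534, 524 and 606 overlapped those of 343, 456 and 536. In adventitial fibroblasts the log2 difference was 0.07 (SE 0.10, approximate 95% interval -0.12 to 0.25).

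**Figure D5:**
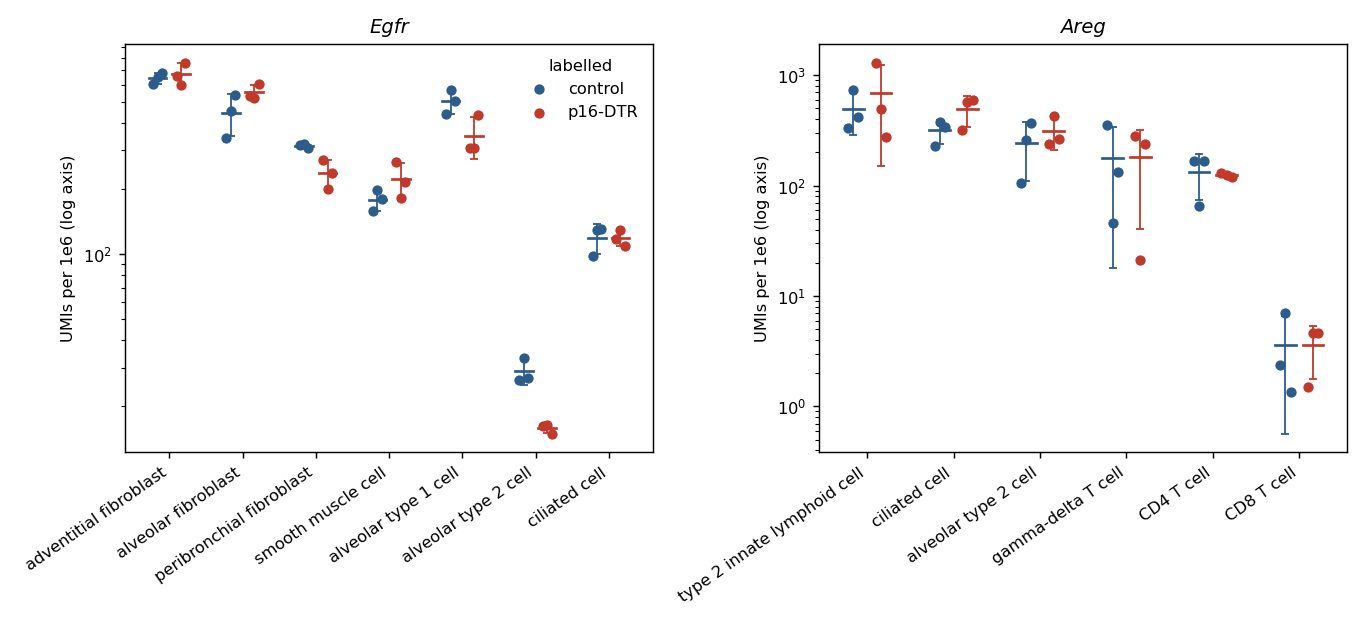
Egfr (left) and Areg (right) levels (y axes, UMIs per 1e6, log axes) by cell class; each point is 1 library, lines are group means and bars 1 SD (n = 3). Egfr in alveolar type 2 cells is at 14.9 to 16.3 under the p16-DTR label and 26.3 to 33.4 in control, and Areg overlaps between groups in each of the 6 classes drawn.

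Of the partner receptors, Erbb2 in general capillary cells had a log2 difference of 0.04 (SE 0.10, approximate 95% interval -0.17 to 0.24), and Erbb3 in alveolar type 2 cells one of -0.10 (SE 0.10, interval -0.30 to 0.10). Neither gene passed in edgeR in any class.

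Areg passed in none of its 11 tested classes by edgeR, with 1 of them at an unadjusted p under 0.05 and none called by DESeq2. That class was ciliated cells, with 317, 569 and 599 against 231, 378 and 341 (log2 fold change 0.66, SE 0.22, edgeR adjusted p = 0.473, and 0.00593 with no filter on low counts), and the groups overlapped. Alveolar type 2 cells had 239, 428 and 266 against 105, 258 and 367, and CD4 T cells 131, 125 and 119 against 168, 65.7 and 169. In alveolar type 1 cells Areg was at 139 in p16-DTR library 1, where 1 of 86 cells held all 100 Areg UMIs, and at 8.69 or below in the other 5 libraries. It entered the edgeR test there only with no filter on low counts, and that call (adjusted p = 7.32e-24) rests on this cell.

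Nrg1 was higher in the mean of the libraries labelled p16-DTR in several of its main classes, without passing the test. Alveolar type 1 cells had 383, 454 and 422 against 344, 378 and 351, which did not overlap (log2 fold change 0.27, SE 0.13, edgeR adjusted p = 0.553). Ciliated cells had 298, 390 and 409 against 247, 266 and 344 (0.37, SE 0.13, adjusted p = 0.505), and adventitial fibroblasts 24.8, 34.8 and 29.6 against 14.7, 20.3 and 25.2 (0.58, SE 0.20, adjusted p = 0.260). In alveolar fibroblasts the Nrg1 log2 fold change was 0.68 (SE 0.32, edgeR adjusted p = 0.259). In arterial endothelium it was 1.21 (SE 0.46, edgeR adjusted p = 0.391, and 0.00120 with no filter on low counts). Of its 11 tested classes, which share the same 6 mice, Nrg1 was higher in 9 and lower in 2. How often other genes were higher in as many classes was not counted. In 3 of the 11 the unadjusted p of edgeR was under 0.05, beside 13.5% of all gene tests. The smooth muscle class, with too few cells to be tested, had Ereg levels of 10.7, 75.5 and 133 against 9.30, 16.6 and 23.5. In peribronchial fibroblasts Ereg was 13.98, 46.3 and 26.7 against 2.74, 8.60 and 24.8 (log2 fold change 1.29, SE 0.61, edgeR adjusted p = 0.291, and 1.84e-06 with no filter on low counts), and both classes overlapped between groups. Leaving out 1 library moved the peribronchial fold change to between 0.73 (without control library 1) and 2.48 (without control library 3). For Tgfa in alveolar type 1 cells the log2 difference was 0.13 (SE 0.20), and for Btc in alveolar type 2 cells -0.01 (SE 0.19). Egf in B cells was 7.37, 5.56 and 5.82 against 8.52, 7.88 and 7.90 (log2 fold change -0.34, SE 0.17, edgeR adjusted p = 0.484).

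A list of 33 other genes of the pathway gave 518 tests in the 20 classes, of which 3 were called higher and 6 lower by edgeR, beside 0.493% of all gene tests. Their median log2 fold change was -0.01, compared with 0.000417 for all genes tested. Of these, the 10 response genes, which are switched on by receptor signalling, had 2 higher and 5 lower calls in 160 tests, and the 9 negative regulators 1 higher and 1 lower in 165. The other ligands and receptor (5 genes, 22 tests, 10 at an unadjusted p under 0.05), the genes of ligand shedding (5 genes, 93 tests, 16) and the adaptors (4 genes, 78 tests, 9) had 0 calls by edgeR, and 13.5% of all gene tests had an unadjusted p under 0.05.

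Of the 7 response gene calls, 6 were in the 3 classes where Hbegf changed, and these classes also held 578 of the 1178 calls over all genes (49.1%). Egr1, an immediate-early transcription factor that is also on the list of stimulus genes above, fell in general capillary (by 1.31 on the log2 scale, edgeR adjusted p = 0.0453), venous (by 1.13, 0.0134) and lymphatic endothelium (by 0.80, 0.0437), where 0.0531% of genes were called. Its venous levels were 597, 759 and 841 against 1994, 1342 and 1545. Dusp5, a phosphatase that acts on ERK, fell in general capillary endothelium, with 8.13, 8.60 and 7.87 against 19.0, 13.9 and 19.1 (by 1.04, SE 0.12, edgeR adjusted p = 0.0303). Phlda1 fell in venous endothelium, with 20.5, 19.98 and 15.6 against 50.0, 25.2 and 45.9 (by 1.09, SE 0.24, edgeR adjusted p = 0.0448). In alveolar type 1 cells Phlda1 rose, with 125, 162 and 136 against 38.6, 55.9 and 68.1 (log2 fold change 1.37, SE 0.20, edgeR adjusted p = 0.00728).

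Calls outside the rule for named genes, given after their values were seen, were Dusp6, another ERK phosphatase, which rose in venous endothelium, and Errfi1, which fell in general capillary endothelium. Dusp6 had 129, 136 and 166 against 78.9, 92.1 and 83.1 (log2 fold change 0.78, SE 0.11, edgeR adjusted p = 0.0130), opposite in direction to Egr1 and Phlda1 in the same cells. Errfi1, an inhibitor that binds Egfr, had 78.4, 77.1 and 68.7 against 111, 97.2 and 103 in general capillary endothelium (log2 fold change -0.44, SE 0.06, adjusted p = 0.0391). In peribronchial fibroblasts Errfi1 rose, with 1063, 878 and 806 against 384, 529 and 668 (log2 fold change 0.84, SE 0.18, edgeR adjusted p = 0.0422), in a class with 2.13% of genes called. Of the 9 pathway calls, Egr1 and Dusp6 in venous endothelium held under each of the 14 alternatives, and the other 7 were lost under 3 to 8 of them.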

How the data were processed

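Single-cell libraries (10x Genomics GEM-X 3′ chemistry) were processed by the authors with Cell Ranger 8.0.1 on mm10, per the submitters' processing notes. The deposited values are raw UMI counts per gene and barcode, with no normalization. The annotation release and strand setting are not given in the sources used here. Positions come from GENCODE M21 (30934 of 31054 identifiers matched).

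Barcodes with at least 500 UMIs, 300 genes and at most 15% mitochondrial UMIs were retained. A cell's score for a class was the mean of its log-normalized markers, each scaled to its 99.8th percentile. A class needed a score of 0.3, at least 3 markers and a lead of 0.05 over the next class (0.15 for the wider margin). Cells with a second lineage at 0.3 were left out, which served as the doublet treatment; no doublet caller was run. Gated classes are ranges of a score. UMIs were summed per library and class and tested with edgeR 4.0.16 in R 4.3.3 (filterByExpr, TMM factors, group alone); standard errors come from the F statistic. The test was checked on simulated data. Thinning left out cells under 5000 UMIs. Python 3.11.15 was used for gating. Free RNA in droplets can give UMIs in cells that do not express a gene, so shares are read beside B cells.

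The members and lists were chosen with earlier results of these data known. The 10 members are always named, as are up to 2 called pathway genes with the largest fold change per class and the 2 genes most like each member. Labels name 1 mouse per library; p-values measure the spread between these libraries. The replicate numbers were not taken to pair the samples in the main test. Alternatives were DESeq2 1.42.0, other scaling, no filter, a replicate block, each library left out, other cell filters and other gates.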

Additional observations from a re-analysis of the deposited data

Results flagged for a closer look

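The change in Hbegf between the groups differed between cell classes in 4 of the 21 pairs tested with the library as a block, by the edgeR adjusted p over all genes, and in 15 with adjustment over the 21 pairs. The pairs were chosen after the data were seen. With the first adjustment 0.0624% of all gene tests in the 21 pairs were called, and no such share was computed for the second. The alveolar type 1 cell minus venous endothelium difference was 2.33 on the log2 scale, and that of alveolar type 1 cell minus general capillary endothelium was 1.62. The difference of alveolar type 2 cell minus venous endothelium was 2.21. For arterial endothelium minus alveolar type 2 cell it was -1.54. In alveolar type 2 cells and arterial endothelium the change itself did not pass the test. No group had enough libraries for a search for outlying samples.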

How the results depend on the processing

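Of the 10 members, 0 were called in all cells, and DESeq2 called 1. Within classes the main count of 3 member calls was 14 without a filter on low counts and 6 with DESeq2; leaving out each library gave 1 to 3, with 1 without p16-DTR library 3. The count of 9 pathway calls was 40 without the filter, 28 with DESeq2 and 5 with cells of a second lineage kept; leaving out each library gave 2 to 11, with 2 without p16-DTR library 3, 3 without control library 1, and 4 without p16-DTR library 2 or control library 3. With equal weight of the tested classes, which gives no test, the all-cell log2 difference turned positive for Hbegf (0.26), Ereg (0.79), Tgfa (0.0217), Btc (0.0436) and Erbb2 (0.0525). Replicate numbers were treated as labels alone: the correlations of same-numbered deviations in all cells were 0.12, -0.02 and 0.13, and 4 of 6 samples correlated best with their own number. This count differed between classes, with 6 of 6 in interstitial macrophages, 5 in CD8 T cells and 0 in general capillary endothelium. A batch shared by number is therefore not excluded. The replicate block gave 4 member calls and 8 pathway calls, with an adjusted p of 0.0584 for Hbegf in general capillary endothelium, 0.0433 for Hbegf and 0.0313 for Egfr in alveolar type 2 cells. Depth limits the alveolar type 1 values, with 56 cells in the smallest library.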
